A study of Saccharomyces cerevisiae with 45 samples.

Results

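The genes of the proteasome and of its transcription factor Rpn4 were followed through the germination of yeast spores with and without rapamycin. Members were chosen by name from the composition of the complex and not by their counts, with earlier results of these data known. The members comprised 33 of the 6723 genes in the table. They were 6 ATPases of the base (RPT1 YKL145W, RPT2 YDL007W, RPT3 YDR394W, RPT4 YOR259C, RPT5 YOR117W, RPT6 YGL048C), and 4 non-ATPase subunits or ubiquitin receptors of the base (RPN1 YHR027C, RPN2 YIL075C, RPN10 YHR200W, RPN13 YLR421C). The lid had 8 members (RPN3 YER021W, RPN5 YDL147W, RPN6 YDL097C, RPN7 YPR108W, RPN8 YOR261C, RPN9 YDR427W, RPN11 YFR004W, RPN12 YFR052W), the alpha ring 7 (SCL1 YGL011C, PRE5 YMR314W, PRE6 YOL038W, PRE8 YML092C, PRE9 YGR135W, PRE10 YOR362C, PUP2 YGR253C) and the beta ring 7 (PRE1 YER012W, PRE2 YPR103W, PRE3 YJL001W, PRE4 YFR050C, PRE7 YBL041W, PUP1 YOR157C, PUP3 YER094C). The last was RPN4 (YDL020C). All 33 passed the filter on low counts in every comparison. In the R64 reference genome of strain S288C, none shared a stretch of 36 bases with another place or overlapped another gene of the RefSeq annotation. Entries of the count table outside that annotation, and the genome of strain SK1, were not searched.

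All samples came from purified spores of Saccharomyces cerevisiae strain SK1. They fell into 15 groups of 3 libraries, lettered A, B and C. The first group was the purified spores themselves. In 7 others the spores had been placed in YPD, a rich medium with glucose, together with the solvent DMSO, and in the last 7 together with rapamycin at 2000 nM, with 7 harvests between 0 and 360 min on each side. The labels do not say whether A, B and C were separate cultures, so p-values measure the spread between these libraries, which may be technical.

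The proteasome degrades proteins marked with ubiquitin. Its core is a barrel in which the inner beta rings carry the proteolytic sites and the outer alpha rings form a gate. The regulatory particle caps the barrel, its base holding the ATPases that unfold substrates and its lid holding the enzyme that removes ubiquitin. In yeast the subunit genes share a promoter element, PACE (proteasome-associated control element), to which Rpn4 binds. Rpn4 is itself a short-lived substrate of the proteasome, so that mRNA levels of RPN4 are only part of its regulation. Rapamycin inhibits TORC1, the kinase complex that couples nutrients to growth.

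The element is shown here because it is the sequence feature that the subunit genes have in common and that was not used to choose them. The 300 bases before each start codon were read from the R64 reference genome of strain S288C (RefSeq) and searched on both strands for GGTGGCAAA. An exact match was found for 27 of the 32 subunits, against 73 of 6007 genes with such a window (1.22%). The 73 include these 27 subunits, 8 neighbours that share a match with a subunit gene, and 38 other genes. That subunit genes share the element was known beforehand, so these counts are descriptive. With 1 mismatch allowed, 32 of 32 subunits had a match, against 464 of the 6007 (7.72%). RPN4 had none in either search. The end of the element farther from the gene lay 84 to 183 bases before the start codon (median 122), and in 23 of the 32 genes the element was on the coding strand. The windows below run from 5′ to 3′ along the strand that carries the element, whose 9 bases are in capitals. They are given for RPN3, PRE3 and PRE2, which fell the most from spores to 120 min in DMSO, for PRE8, which fell the least by then, and for the 5 genes without an exact match. Substitutions are counted from 1 at the 5′ end of the element, with the base of GGTGGCAAA first.
RPN3 (lid, chrV:196843-196871, minus strand): ctctttcttgGGTGGCAAAtgtttttcgt
PRE3 (beta ring, chrX:435035-435063, plus strand): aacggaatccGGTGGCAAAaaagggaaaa
PRE2 (beta ring, chrXVI:732184-732212, plus strand): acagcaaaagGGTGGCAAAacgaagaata
PRE8 (alpha ring, chrXIII:86841-86869, minus strand): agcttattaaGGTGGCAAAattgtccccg
RPN10 (ubiquitin receptor, A7G, chrVIII:498968-498996, minus strand): tgtaaattccGGTGGCGAAaacccgcctg
RPN13 (ubiquitin receptor, A7G, chrXII:965656-965684, minus strand): ttattcgcgaGGTGGCGAAagctttgcta
RPN8 (lid, G1A, chrXV:817085-817113, minus strand): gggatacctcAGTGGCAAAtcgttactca
PRE5 (alpha ring, G1A, chrXIII:901552-901580, plus strand): cctattatagAGTGGCAAAattaaaaatt
PUP1 (beta ring, G1A, chrXV:631891-631919, minus strand): aacccggccgAGTGGCAAAataccaaaaa
Among the 5 inexact elements, A7G occurred in the pair of ubiquitin receptors and G1A in the other 3. The reference strain is not SK1, in which these windows were not read. In RPN4 the 300-base window held neither the Pdr1/Pdr3 element TCCGCGGA nor the Yap1 element TTACTAA, which were present in 0.2% and 7.84% of all windows. Only these exact letters were searched, so other forms of the elements, or sites farther from the gene, may have been missed.

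Library totals over genes ran from 7736397 to 14522407 reads. Levels are given as CPM, the count relative to a common library total, scaled by TMM over all 45 libraries. Most markers went the way that the labels imply. SPS100, a spore wall gene, was at 10056 to 13427 CPM in spores and at 25.9 to 43.9 CPM after 360 min in DMSO, while the ribosomal protein gene RPL3 went from 437 to 475 CPM to 4462 to 4803 CPM. Of the 6 spore markers examined 5 fell by 60 min in DMSO (42.9% of all genes lower), and of 3 testable growth markers 2 rose (42.7% higher). The growth marker that did not rise was CTS1, a chitinase of daughter cell separation, at 305 to 332 CPM in spores and 51.4 to 66.2 CPM at 60 min. GAP1, an amino acid permease that is repressed when TORC1 is active, was at 94.5 to 161 CPM in DMSO and 6294 to 6940 CPM in rapamycin at 60 min. DIP5 and MEP2 passed as well, making 3 of 3 TORC1 reporters. In bulk RNA fewer cells that express a gene and less RNA per cell cannot be told apart. Library A of rapamycin at 360 min stood apart from its replicates. Its median distance from the mean of the other 2 was 0.40 on the log2 scale over all genes, where the next library was at 0.22 and the median library at 0.12, and its RPL3 level was 1216 CPM against 3412 and 3424 CPM. Results at 360 min in rapamycin are given with and without it.

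In purified spores the subunit mRNAs together made up 0.930% ± 0.0168 of the counts (SD, n = 3). Per kilobase of coding sequence, which allows genes to be compared, they ranged from 78.7 CPM for PRE8, an alpha subunit, to 524 CPM for RPN5, a lid subunit, and RPN4 was above all of them at 660 CPM. The subunits of one complex were thus unequal in the spore. The SD of the 32 log2 levels per kilobase was 0.62 to 0.68 in the spore libraries. After 10 min in DMSO it was 0.40 to 0.43, at 120 min 0.53 to 0.56, and at 240 min 0.27 to 0.30. The range at 240 min did not overlap with that of the spores. In rapamycin the SD was 0.33 to 0.34 at 60 min, 0.31 to 0.32 at 120 min and 0.27 to 0.29 at 240 min, so the levels were also closer to each other than in spores with the drug.

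**Figure D1:**
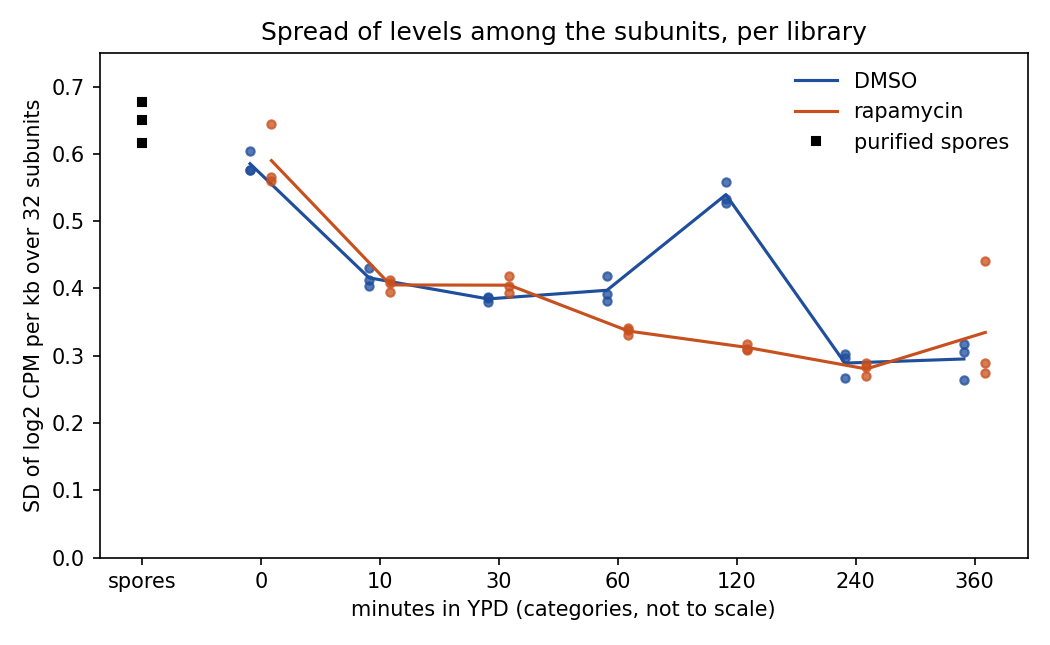
Standard deviation over the 32 subunits of log2 CPM per kilobase of coding sequence, for each library (points), with the mean of 3 libraries (lines), by minutes in YPD. Spores sit at 0.62 to 0.68, DMSO falls to 0.27 to 0.30 at 240 min after a rise to 0.53 to 0.56 at 120 min, and library A of rapamycin at 360 min (0.44) sits above its replicates (0.27 and 0.29).

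The first comparison asks what happens to these mRNAs when spores enter rich medium. At 0 min in DMSO 0 of 33 members passed the test against spores (edgeR's quasi-likelihood test, adjusted p under 0.05), as did 0% of all genes. At an unadjusted p under 0.05 the count was 9 members, and DESeq2 called 2. The shares of all genes by these rules are not given, so neither count is a result about the members. By 10 min 23 subunits and RPN4 were lower than in spores, and 2 subunits higher, against 36.7% of all genes lower and 38.8% higher. The 2 were PRE8 (log2 fold change 0.82 ± 0.08 SE, adjusted p = 5.1e-06) and RPN12, a lid subunit. PRE8 was already at 0.83 ± 0.13 against spores at 0 min, without overlap but without passing (adjusted p = 0.055). No subunit was called higher at 10 min than at 0 min in DMSO. The balance of members at 10 min depended on scaling. With library size alone in place of TMM, which moved the median of all genes from 0.00 to 0.37, the split of the members was 10 up and 11 down at 10 min. By 30 min 28 members were lower and 1 higher with TMM, where 39.7% of all genes were lower and 42% higher, and library size alone gave 21 and 4. RPN4 fell under either scaling.

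By 60 min 29 of 32 subunits and RPN4 had fallen, with none higher, where 42.9% of all genes tested were lower and 42.7% higher. Their median log2 fold change was -1.26, against -0.01 over all genes, and 21 subunits were at least 2-fold lower, against 26.8% of all genes. RPN3 and RPN6, both of the lid, fell the most. RPN3 (YER021W) was at 671, 690 and 749 CPM in spores and at 87.2, 95.6 and 97.2 CPM at 60 min. Its libraries did not overlap, and it fell by 2.94 ± 0.10 on the log2 scale (adjusted p = 4.5e-11). RPN6 fell by 2.41 ± 0.10 (adjusted p = 1.8e-10). The 3 subunits that did not pass were SCL1, PRE8 and PRE9, all of the alpha ring. PRE8 (YML092C) was at 55.0, 63.7 and 59.1 CPM in spores and at 52.9, 64.8 and 63.6 CPM at 60 min, a 1.00-fold difference (adjusted p = 0.999). SCL1 was at 111, 129 and 125 CPM in spores and 107, 116 and 113 CPM at 60 min, overlapping ranges with a log2 fold change of -0.15 ± 0.08 (adjusted p = 0.12). Without spore library A SCL1 passed, at -0.24 with an adjusted p of 0.026.

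The parts of the complex fell by unequal amounts. The median log2 fold change at 60 min was -1.82 for the beta ring, -1.56 for the non-ATPase subunits of the base, -1.26 for the lid, -1.21 for the ATPases and -0.29 for the alpha ring. The 3 catalytic beta subunits were among those that fell, PRE2 (chymotrypsin-like site) by 2.38 ± 0.09, PRE3 (caspase-like site) by 2.23 ± 0.14 and PUP1 (trypsin-like site) by 1.63 ± 0.11. Long and short genes also differed. Over all genes the median was -0.25 for coding sequences over 1500 bases and 0.21 for those under 1000 bases. The 3 subunit genes over 1500 bases had a median of -2.29 and the 18 under 1000 bases one of -1.09. The alpha and beta subunits are all in that short class, and the part of coding length in the differences between subunits was not tested.

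The fall went on to 120 min, when all 32 subunits and RPN4 were lower than in spores (background 44.8% lower), 22 subunits by at least 2-fold (background 30.8%), at a median of -1.53. The subunits then made up 0.183% ± 0.0110 of the counts. PRE3 had the lowest level relative to spores. PRE3 (YJL001W) was at 163, 190 and 191 CPM in spores, at 29.7, 43.6 and 44.8 CPM at 60 min and at 13.1, 13.5 and 15.9 CPM at 120 min, a 12.8-fold fall from spores (log2 fold change -3.68 ± 0.11, adjusted p = 6.8e-12) in which each time point lay below the last without overlap. RPN3 followed at -3.46 ± 0.10. At the other end were PRE8 (-0.44 ± 0.10, adjusted p = 0.0013) and PRE7, a beta subunit (-0.50 ± 0.08, adjusted p = 7.5e-05). PRE7 went against the rest. From 60 to 120 min it rose from 42.7, 42.6 and 55.8 CPM to 94.7, 105 and 102 CPM (log2 fold change 1.09 ± 0.11, adjusted p = 5.6e-06), while 25 subunits and RPN4 fell. Over all genes 34.8% were lower and 31.1% higher at this step.

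**Figure D2:**
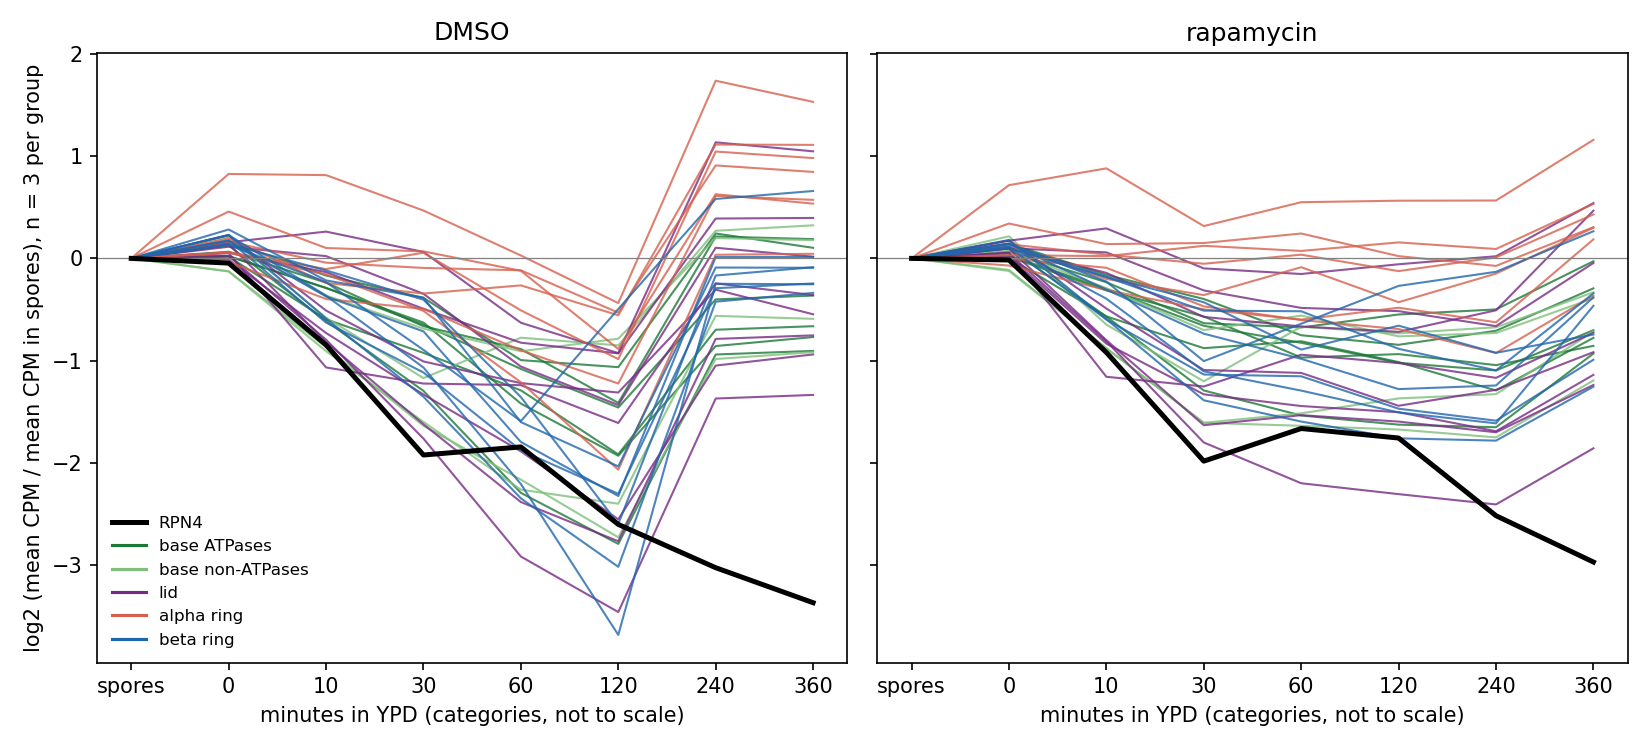
Log2 ratio of the mean CPM of each member to its mean in spores (3 libraries per group) by minutes in YPD, in DMSO (left) and rapamycin (right), with subunits coloured by part of the complex and RPN4 in black. In DMSO most lines fall to 120 min, with PRE7 rising from 60 to 120 min. The subunits turn up at 240 min, while RPN4 goes on falling. In rapamycin the subunits change less than in DMSO from 30 to 240 min, their mean summed level going from 4799 to 4238 CPM.

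Between 120 and 240 min in DMSO the direction turned. All 32 subunits rose, each by at least 2-fold, whereas 36.5% of all genes tested rose and 14.3% rose by at least 2-fold. Their log2 fold changes ran from 1.08 to 3.53, with a median of 1.81 against 0.02 over all genes, and in 32 of 32 the libraries did not overlap (75.2% of all genes). Their share of the counts went to 0.615% ± 0.0260. PRE3 rose the most, from 13.1, 13.5 and 15.9 CPM to 155, 165 and 138 CPM, an 11.5-fold increase (log2 fold change 3.53 ± 0.10, adjusted p = 1.9e-10). PRE2 was at 38.2, 32.1 and 35.3 CPM at 120 min and at 234, 222 and 180 CPM at 240 min (2.69 ± 0.11, adjusted p = 1.5e-09), and PUP1 rose by 2.04 ± 0.08. The smallest rises were those of RPN10, a ubiquitin receptor (1.08 ± 0.09, adjusted p = 3.1e-07), and RPN11, the deubiquitinase of the lid (1.11 ± 0.07, adjusted p = 4.3e-08). By part, the medians were 2.43 for the beta ring, 1.93 for the alpha ring, 1.62 for the lid, 1.53 for the non-ATPase subunits of the base and 1.36 for the ATPases. The split of 32 higher and RPN4 lower was the same under every alternative scaling, tool and filter and without any single library, and the 32 also passed the 2-fold limit.

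The 5 subunits without an exact element rose too, with log2 fold changes from 1.08 to 2.04 (median 1.46), within the range of 1.11 to 3.53 (median 1.93) for the 27 with an exact element except for RPN10. Both genes with A7G were near the low end, RPN10 at 1.08 and RPN13 at 1.22. Outside the complex, 38 genes had an exact match that was not shared with a neighbouring subunit gene, and 35 of them were tested at this step. Of these 14 rose and 11 fell, with a median of 0.05, where 36.5% of all genes rose and 35.2% fell.

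**Figure D3:**
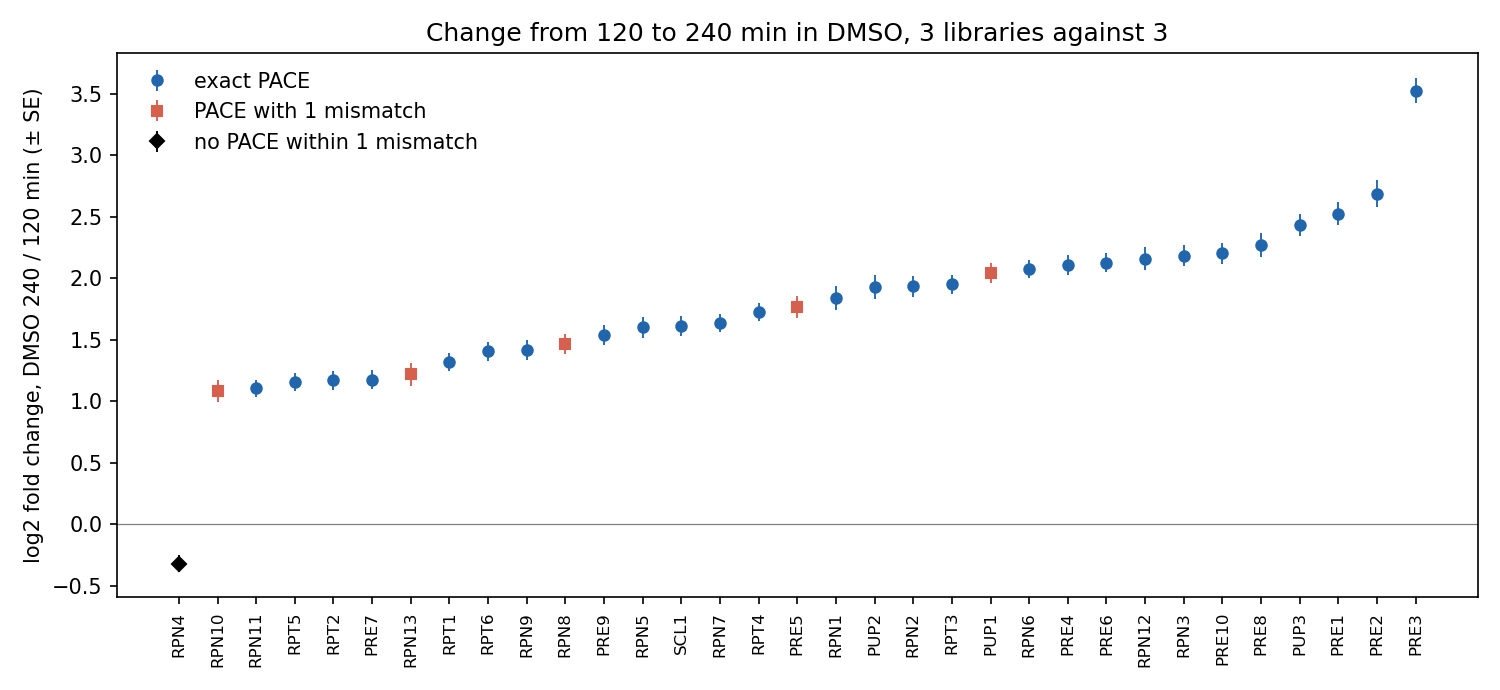
Log2 fold change (± SE) between 120 and 240 min in DMSO for the 33 members in rank order, 3 libraries against 3, with the match of each promoter window to PACE shown by colour and shape. All 32 subunits lie between 1.08 and 3.53, and RPN4, with no match, is the only member below 0, at -0.32.

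From 240 to 360 min in DMSO 0 of 32 subunits passed, with a median log2 fold change of 0.05, while 42.5% of all genes did. At an unadjusted p under 0.05 the count was 1 subunit, and DESeq2 called none. RPN4 was the only member called. With library size alone, which moved the median of all genes from 0.00 to 0.15, 11 subunits rose and RPN4 was not called.

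The late libraries in DMSO were then set against spores, and the parts of the complex stood at unequal levels relative to them. At 240 min 12 subunits were higher and 14 lower than in spores, whereas 44.3% of all genes were higher and 44.5% lower. At 360 min 10 subunits were higher and 14 lower than in spores (background 43.8% and 43.6%), with a median of -0.06. Of the 7 alpha subunits 6 were higher and none lower, with a median of 0.83. Of the 6 ATPases none was higher and 4 were lower (median -0.53), and of the 8 lid subunits 2 were higher and 5 lower (median -0.47). PRE8, the lowest per kilobase in spores, ended the highest relative to them, at 159, 193 and 162 CPM against 55.0, 63.7 and 59.1 CPM (log2 fold change 1.51 ± 0.10, adjusted p = 3.4e-09), with no overlap. It had been at 0.83 ± 0.13 at 0 min, without passing, and at 1.72 ± 0.10 at 240 min. Among the catalytic subunits, PRE3 (-0.27 ± 0.09, adjusted p = 0.012) and PRE2 (-0.36 ± 0.10, adjusted p = 0.0037) were lower, and PUP1 did not pass (-0.11 ± 0.09, adjusted p = 0.25). The call of PRE3 was lost without DMSO 360 min library C (-0.22) and in 1 fit over all 45 libraries (-0.26). The smallest differences were those of RPN7, a lid subunit (215, 218 and 216 CPM against 199, 219 and 223 CPM in spores, adjusted p = 0.97), and PUP3, a beta subunit (187, 185 and 171 CPM against 163, 182 and 193 CPM, adjusted p = 0.95), whose groups overlapped. With library size alone, which moved the median of all genes to -0.29 at 240 min, 8 members were above spores and 20 below them.

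RPN4 (YDL020C, chrIV:415113-416708 in R64) took another course from the genes that its product is known to activate. It was at 987, 1037 and 1136 CPM in spores and at 1010, 1015 and 1037 CPM at 0 min in DMSO. It then read 589, 559 and 610 CPM at 10 min, 297, 288 and 249 CPM at 30 min, and 296, 301 and 284 CPM at 60 min. The later values were 170, 173 and 178 CPM at 120 min, 128, 127 and 133 CPM at 240 min, and 97.4, 110 and 99.0 CPM at 360 min. Except for 0 against spores and 60 against 30 min, each harvest lay below the one before it without overlap. Against spores RPN4 fell by 0.84 ± 0.09 on the log2 scale at 10 min, by 1.92 ± 0.11 at 30 min, by 1.87 ± 0.10 at 60 min and by 3.39 ± 0.12 (10.5-fold, adjusted p = 2.0e-12) at 360 min. Between 120 and 240 min, when the 32 subunits rose, it fell by 0.32 ± 0.07 (adjusted p = 0.0012), and from 240 to 360 min by 0.29 ± 0.08 (adjusted p = 0.015). The last call was lost without DMSO 360 min library A or C. In spores RPN4 mRNA per kilobase was above that of every subunit, and at 360 min, at 64.0 CPM per kilobase, it was below that of every subunit, the lowest of which was RPT5 at 155 CPM per kilobase.

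**Figure D4:**
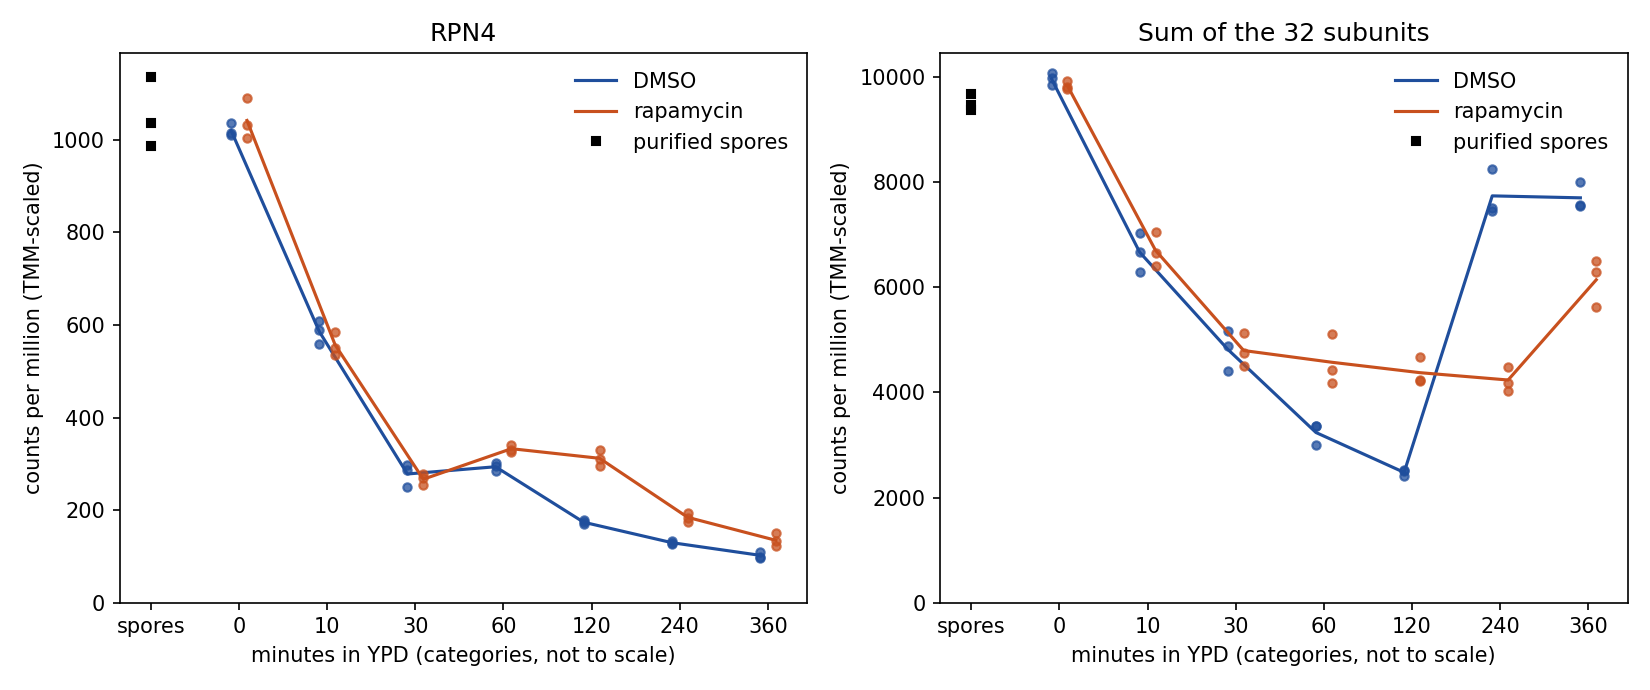
TMM-scaled CPM of RPN4 (left) and of the 32 subunits summed (right) in each library (points) with the mean of 3 libraries (lines), by minutes in YPD, for spores, DMSO and rapamycin. In DMSO the sum falls to 2479 CPM on average at 120 min and is at 7744 CPM at 240 min, while RPN4 goes from 1053 CPM in spores to 102 CPM at 360 min.

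The second comparison sets rapamycin, which inhibits TORC1, against DMSO at the same harvest. The paper reports that spores in rapamycin formed no constriction, failed to divide and did not replicate their DNA. At the later harvests an effect of TORC1 on these genes cannot be told apart from this block of germination. At 0, 10 and 30 min 0 of 33 members passed, where 0%, 0% and 0.0172% of all genes did. At an unadjusted p under 0.05 the count of members was also 0 at each of these times. DESeq2 called 0 members as well. At 30 min, when 28 of 33 members in DMSO were lower than in spores, the members' log2 fold changes between rapamycin and DMSO lay between -0.15 and 0.09. The TORC1 reporters did not pass at 30 min either, though their rapamycin and DMSO libraries did not overlap. Their log2 fold changes were 0.43 (GAP1), 0.61 (DIP5) and 0.75 (MEP2), with adjusted p of 0.9999, 0.93 and 0.52. The paper reports that rapamycin inhibits phosphorylation of Sch9, its measure of TORC1 activity, after an hour in medium. Whether TORC1 was inhibited in these libraries by 30 min was not tested. RPN4 in rapamycin read 1032, 1004 and 1090 CPM at 0 min, 586, 550 and 535 CPM at 10 min, and 269, 277 and 254 CPM at 30 min, values that overlapped with those in DMSO.

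At 60 min 25 of 32 subunits were higher in rapamycin and none was lower, whereas 31.2% of all genes were higher and 29.2% lower. The median log2 fold change was 0.54 against 0.04 over all genes, and none reached 2-fold, which 10.4% of all genes did in this direction. The largest differences were in the beta ring, where 7 of 7 passed with a median of 0.86. PRE7 was at 42.7, 42.6 and 55.8 CPM in DMSO and 86.8, 71.4 and 115 CPM in rapamycin (0.99 ± 0.18, adjusted p = 0.0020), and PRE3 at 29.7, 43.6 and 44.8 CPM against 63.2, 58.2 and 101 CPM (0.96 ± 0.23, adjusted p = 0.0073). Neither pair of groups overlapped. PRE2 (0.79 ± 0.11) and PUP1 (0.75 ± 0.13) were higher as well. RPN11 (105, 118 and 120 CPM against 119, 119 and 130 CPM, 0.14 ± 0.09, adjusted p = 0.18) and RPN13 (46.6, 39.4 and 53.7 CPM against 51.3, 44.7 and 54.5 CPM, 0.15 ± 0.13, adjusted p = 0.36) did not pass. RPN4 was at 296, 301 and 284 CPM in DMSO and 326, 331 and 342 CPM in rapamycin, groups that did not overlap, but missed the threshold (0.22 ± 0.09, adjusted p = 0.056). DESeq2 (adjusted p = 0.029) and the fit over all 45 libraries (adjusted p = 0.018) called it.

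At 120 min 28 subunits and RPN4 were higher in rapamycin and none was lower (41.6% of all genes higher, 39.5% lower), 15 of the subunits by at least 2-fold (21.3%), with a median of 0.93. PRE3, at 13.1, 13.5 and 15.9 CPM in DMSO, was at 59.5, 57.9 and 74.5 CPM in rapamycin, a 4.55-fold difference (2.19 ± 0.13, adjusted p = 5.7e-08). PRE1, another beta subunit, was at 33, 30.2 and 31.1 CPM against 95.7, 98.7 and 114 CPM (1.73 ± 0.09, adjusted p = 2.0e-08). The catalytic PUP1 (1.39 ± 0.07) and PRE2 (1.27 ± 0.10) were higher too. The 4 subunits that did not pass were RPN10, RPN11, RPN13 and PRE5. RPN11 alone had a value below 0, at 107, 107 and 108 CPM in DMSO and 94.5, 97.5 and 103 CPM in rapamycin (-0.11 ± 0.06, adjusted p = 0.11), and RPN10 was at 81.8, 91.1 and 83 CPM against 82.7, 93.2 and 84.1 CPM (0.04 ± 0.07, adjusted p = 0.60). Of those 4, RPN10, RPN13 and PRE5 are among the 5 genes without an exact PACE, and RPN11 has one. The median was 0.14 over the 5 genes with a mismatch and 1.01 over the 27 with an exact element. At the other harvests the medians of these classes were 0.34 and 0.57 (60 min), -0.98 and -0.97 (240 min), and -0.62 and -0.34 (360 min). The mismatch class thus had the smaller median difference from DMSO at 60 and 120 min, but not at 240 and 360 min. RPN4 was at 170, 173 and 178 CPM in DMSO and at 311, 329 and 296 CPM in rapamycin, a 1.82-fold difference without overlap (0.86 ± 0.06, adjusted p = 2.7e-07).

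Scaling bore on the size of these differences. With library size alone the median of all genes moved from 0.04 to 0.35 at 60 min and from 0.03 to 0.54 at 120 min. Under it 33 of 33 members were higher at either time, with RPN11 at 0.39 at 120 min. The share of all genes called higher under library size alone is not given, so this count is not a result about the members. The median of the members under that scaling was 0.84 and 1.43.

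By 240 min the sign had turned. All 32 subunits were lower in rapamycin than in DMSO, 13 by at least 2-fold, whereas 36.3% of all genes were lower, 37.1% higher and 7.68% lower by at least 2-fold. The median was -0.98 against 0.01 over all genes. PRE3 was at 155, 165 and 138 CPM in DMSO and 56.4, 51.5 and 70.2 CPM in rapamycin (-1.42 ± 0.11, adjusted p = 8.4e-08), and PRE2 at 234, 222 and 180 CPM against 81.3, 77.9 and 88.8 CPM (-1.41 ± 0.10, adjusted p = 4.4e-08). Neither overlapped. PUP1 was lower by 1.85-fold (-0.89 ± 0.07). The smallest difference among subunits was in the ATPase gene RPT2, at 242, 278 and 251 CPM against 232, 212 and 234 CPM (-0.24 ± 0.08, adjusted p = 0.012), a call lost with library size alone (-0.01) and without rapamycin 240 min library B. RPN4 alone among the members was higher in rapamycin, at 175, 194 and 184 CPM against 128, 127 and 133 CPM without overlap (0.45 ± 0.07, adjusted p = 8.8e-05).

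The turn itself was tested as a change of the rapamycin effect. Between 120 and 240 min that effect fell in 33 of 33 members, where 33.9% of all genes fell, with a median over the subunits of -1.83. It changed most for PRE3 (-3.62 ± 0.18, adjusted p = 4.2e-10) and least for RPN11 among the subunits (-0.94) and for RPN4 over all members (-0.43 ± 0.09, adjusted p = 0.00059). The levels show on which side the change lay. The subunit sum in rapamycin was 4576 ± 478 CPM at 60 min, 4378 ± 263 CPM at 120 min and 4238 ± 230 CPM at 240 min (SD, n = 3), whereas in DMSO it was 3238 ± 213, 2479 ± 63.2 and 7744 ± 448 CPM. In rapamycin the libraries of these 3 times overlapped on this scale, while those in DMSO lay below them at 60 and 120 min and above them at 240 min. As a share of all counts, without TMM, the subunits in rapamycin made up 0.433% to 0.564% at 60 min, 0.440% to 0.492% at 120 min and 0.354% to 0.408% at 240 min. By that measure 240 min lay below the earlier times without overlap. The shares in DMSO were 0.257% to 0.290%, 0.172% to 0.194% and 0.585% to 0.631%, on the same sides of rapamycin as the sums. The earlier changes were smaller. From 30 to 60 min the effect rose in 22 subunits (24.8% of all genes), and from 60 to 120 min in 16 subunits and RPN4 (22.5%), with PRE7 as the only member in which it fell (-0.75 ± 0.21, adjusted p = 0.013, background 18% lower), a call lost with library size alone (-0.57).

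**Figure D5:**
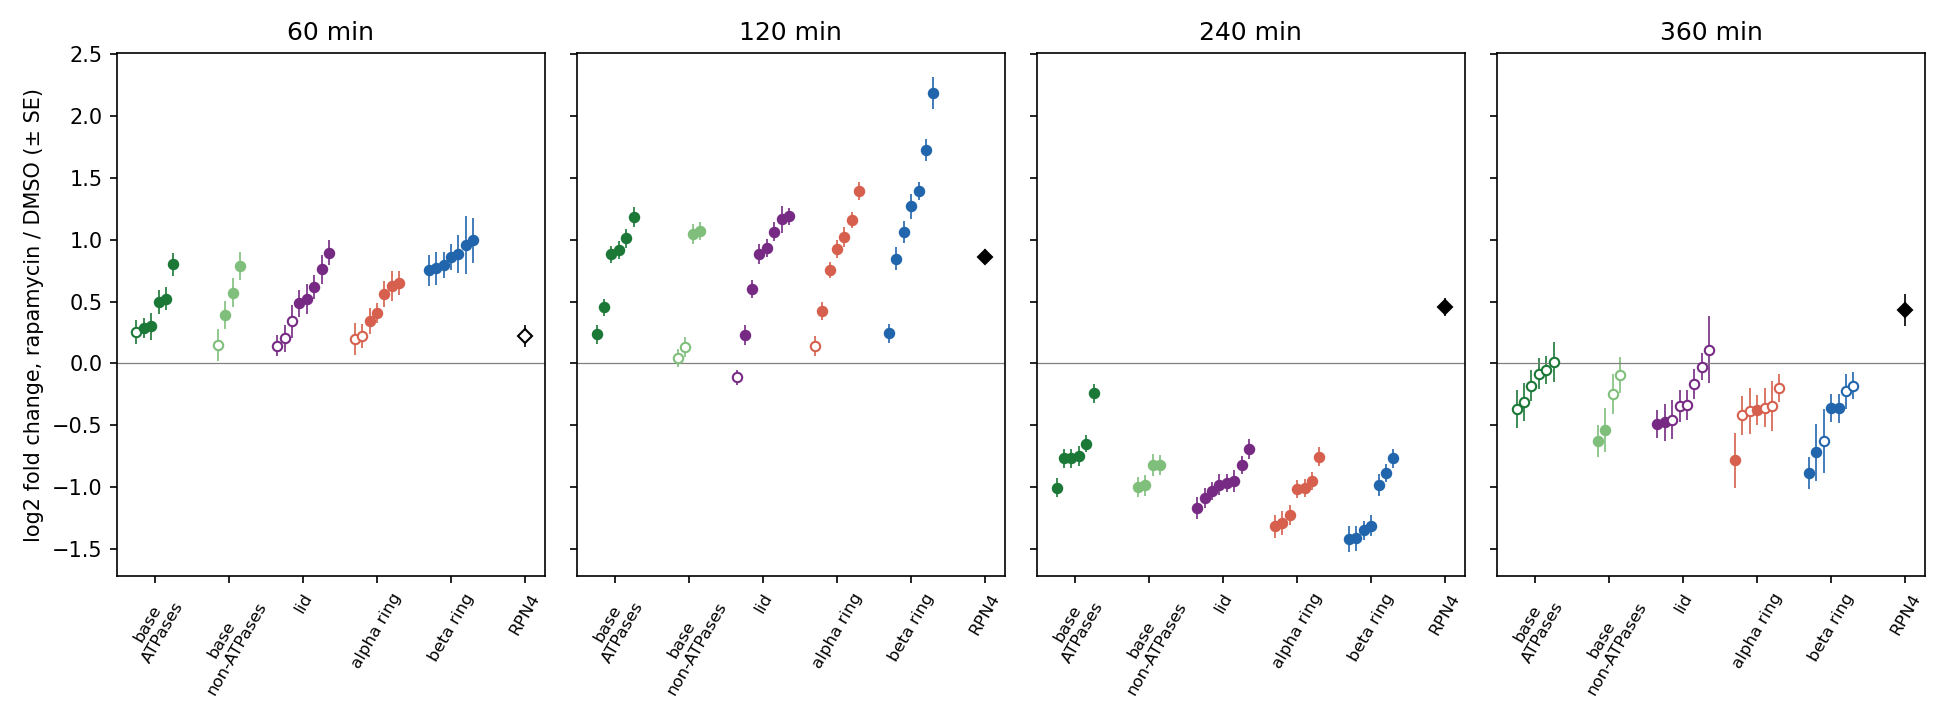
Log2 fold change (± SE) of rapamycin against DMSO at 60, 120, 240 and 360 min for the 32 subunits by part of the complex (circles) and RPN4 (diamonds), 3 libraries against 3, filled where the adjusted p was under 0.05. The subunits lie mostly above 0 at 60 and 120 min, all below 0 at 240 min (-1.42 to -0.24), and RPN4 stays above 0 at all 4 times.

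At 360 min 10 subunits were lower in rapamycin and none was higher (18.5% of all genes lower, 24.1% higher), with a median of -0.35 and none at 2-fold. The subunit sum was 5629, 6508 and 6301 CPM in rapamycin, with library A the lowest, against 7706 ± 257 CPM in DMSO (SD, n = 3). Without the library that stood apart, rapamycin 360 min A, 18 were lower. The shares of all genes given here are for the full set, and those without A are not given. Leaving out any other single library gave 2 to 7 members called in all, of 11 in the full set. PRE2 was at 245, 226 and 204 CPM in DMSO and 107, 129 and 121 CPM in rapamycin (-0.89 ± 0.13, adjusted p = 0.0015, and -0.82 without A). PRE5 was at 246, 246 and 208 CPM against 87.5, 163 and 149 CPM, with library A the lowest (-0.78 ± 0.22, adjusted p = 0.024, and -0.56 without A), and its call was lost without any 1 of DMSO 360 min A, B and C. RPN9, a lid subunit, went the other way in library A alone, at 243, 251 and 246 CPM in DMSO and 383, 193 and 202 CPM in rapamycin (0.11 ± 0.27, adjusted p = 0.76), and was lower without A (-0.30, adjusted p = 0.0081). RPT3, an ATPase, at 302, 222 and 229 CPM in rapamycin against 255, 271 and 241 CPM (0.01 ± 0.16, adjusted p = 0.96), and RPN7 (-0.03 ± 0.11, adjusted p = 0.85) had the smallest differences. Without A they were at -0.16 and -0.05 and did not pass either. PRE3 (-0.18 ± 0.11, adjusted p = 0.22, and -0.14 without A) and PUP1 (-0.63 ± 0.26, adjusted p = 0.081) did not pass, though PUP1 did without A (-0.36). RPN4 was at 97.4, 110 and 99.0 CPM in DMSO and 149, 133 and 121 CPM in rapamycin (0.43 ± 0.13, adjusted p = 0.032), a call that held without library A and was lost without rapamycin 360 min B or any of DMSO 360 min A, B and C. Between 240 and 360 min the rapamycin effect rose in 21 subunits (13.8% of all genes), and without A in 31 members (share of all genes not given).

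Set against spores, which these comparisons share with those in DMSO, the rapamycin libraries at 240 min had 25 subunits lower and 1 higher (43.3% of all genes lower, 44.8% higher), with a median of -1.0, beside the 14 and 12 in DMSO. By 360 min 18 subunits were lower and 4 higher (38.4% and 40% of all genes), with a median of -0.39. PRE8 was again the highest relative to spores, at 91.2, 158 and 148 CPM (1.15 ± 0.21, adjusted p = 0.0011), with library A the lowest, and at 1.36 without A. At 0 min in rapamycin it had been at 0.73 ± 0.16 against spores, without passing. Without A 21 members were lower than spores and 8 higher (shares of all genes not given).

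Genes that work with the proteasome were examined in lists of their own. Over all genes, 42.9% were lower and 42.7% higher than in spores at 60 min in DMSO, 36.5% rose and 35.2% fell from 120 to 240 min, and 41.6% were higher and 39.5% lower with rapamycin at 120 min. Of 9 assembly chaperones, 6 fell by 60 min in DMSO, and 8 rose and 1 fell from 120 to 240 min. With rapamycin at 120 min 4 of them were higher and 3 lower, and these last shares alone were near those of all genes. NAS6, a chaperone of the base, was higher by 1.60 ± 0.12 on the log2 scale, and UMP1, which the core needs to mature, was lower by 1.11 ± 0.09 in rapamycin at 240 min. Of 5 associated factors all 5 fell by 60 min, all 5 rose from 120 to 240 min and all 5 were higher with rapamycin at 120 min. ECM29, a protein that joins core and cap, rose by 2.61 ± 0.12 from 120 to 240 min and was higher by 2.53 ± 0.13 in rapamycin at 120 min. Of 7 shuttle and Cdc48 complex genes, 6 fell by 60 min, 6 rose from 120 to 240 min and 6 were higher with rapamycin at 120 min. RAD23, a shuttle that also acts in DNA repair, was the exception in each case.

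CDC48 itself, the ATPase that extracts ubiquitinated proteins, had the course of the subunits. It was at 986, 977 and 1087 CPM in spores, at 124, 117 and 141 CPM at 120 min in DMSO and at 829, 864 and 851 CPM at 240 min, a rise of 2.83 ± 0.09. In rapamycin it was at 431, 418 and 474 CPM at 120 min (1.81 ± 0.08 against DMSO, adjusted p = 9.7e-09) and at 395, 387 and 457 CPM at 240 min (-1.09 ± 0.09, adjusted p = 1.2e-07). It was thus on either side of DMSO at these times, as the subunits were. Its window and that of ECM29 hold an exact PACE. UBA1, the ubiquitin-activating enzyme, which also holds one, rose by 1.99 ± 0.13 from 120 to 240 min and was higher by 2.02 ± 0.12 with rapamycin at 120 min.

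The 5 genes of ubiquitin and its activation did not move together. By 60 min in DMSO 3 had risen, those of ubiquitin fused to ribosomal proteins (RPL40A, RPL40B, RPS31), and 2 had fallen. With rapamycin at 120 min the same 3 were lower, RPS31 by 2.43 ± 0.12 on the log2 scale. UBI4, the polyubiquitin gene induced by stress, was at 230, 262 and 260 CPM in DMSO and 1155, 1198 and 1220 CPM in rapamycin (2.27 ± 0.08, adjusted p = 2.3e-09). At 240 min it was at 84.3, 78.2 and 74.0 CPM against 572, 685 and 581 CPM (2.90 ± 0.10, adjusted p = 4.5e-11). UBI4 has an exact PACE as well, yet it was higher in rapamycin at the time when all 32 subunits were lower. Of the 8 genes that act on RPN4 or on its protein, 6 fell and 2 rose by 60 min in DMSO (42.9% and 42.7% of all genes). With rapamycin 6 were higher and none lower at 120 min (41.6% and 39.5%), and 5 were higher and 1 lower at 240 min (37.1% and 36.3%). UBR2, the ubiquitin ligase that targets Rpn4, was higher by 1.81 ± 0.16 in rapamycin at 120 min.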

How the data were processed

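Poly-A RNA was sequenced from 45 samples. The deposited values are raw read counts per gene, without normalization. According to the methods, the authors trimmed reads with Trimmomatic 0.33 (submitters' notes), aligned them with hisat2 to the SK1 genome and assigned them to genes with HTSeq (union mode, strand used), with an annotation of the S288C reference. Reads from genes that differ between these strains can be lost. The notes also name the build hg19, and the series record another sequencer and aligner. Neither was followed. The table held 6723 genes (139 without a count), and 6039 matched the RefSeq R64 annotation, which gave names, coding lengths and promoter windows.

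Analyses used R 4.3.3, edgeR 4.0.16, limma 3.58.1 and DESeq2 1.42.0. Fits used only the libraries compared, TMM scaling and edgeR's quasi-likelihood test, keeping genes over 1 CPM in at least 3 libraries. Changes of the rapamycin effect were interactions over 12 libraries. Genes passed at an adjusted p under 0.05 (Benjamini-Hochberg over all genes), and the 2-fold limit is given beside it. Printed CPM were scaled over all 45 libraries, so their ratios differ slightly from the fold changes. The code was tested on simulated data. Total counts were 7736397 to 14522407, and no replicates agreed within sampling noise (lowest chi-square per degree of freedom 5.39).

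Members and lists were chosen with earlier results of these data known. In DMSO against spores at 60 and 360 min and rapamycin against DMSO at 60 to 360 min, the text names the 2 largest and 2 smallest log2 fold changes, members of opposite sign, the catalytic subunits and RPN4, and from the other lists (assembly chaperones, associated factors, shuttles and Cdc48 complex, ubiquitin, genes upstream of RPN4, spore, growth and TORC1 markers) only genes past both limits. Genes named for other comparisons (DMSO at 10 and 120 min, the steps between harvests, rapamycin against spores), and CTS1 and RAD23, were chosen after their values were seen.

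Same-numbered libraries deviated together, with every pair's correlation over 0.1, in DMSO against spores at 0, 10 and 30 min, rapamycin against DMSO at 0, 10, 30 and 120 min, rapamycin against spores from 0 to 120 min, and the DMSO steps to 10, 30, 60 and 240 min. The block changed a count of calls by over 1.5 times there in rapamycin against spores at 0 min alone, from 0 to 1 member. Alternatives were other scaling (library size, RLE), DESeq2, edgeR's exact test, no filter, a 2-fold limit, 1 fit over 45 libraries, the block and leaving out each library. Counts of members under alternatives, or at an unadjusted p, mostly stand without the share of all genes called by the same rule. They show how a count depends on the setting and are not results about the members.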

Additional observations from a re-analysis of the deposited data

Results flagged for a closer look

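The effect of rapamycin differed between neighbouring harvests by the interaction test. Between 30 and 60 min it rose in 22 of 33 members (24.8% of all genes). Between 60 and 120 min it differed in 18, rising in 17 and falling in 1 (22.5% and 18% of all genes). It fell in 33 between 120 and 240 min (33.9%) and rose in 21 between 240 and 360 min (13.8%). For PRE3 the effect changed by -3.62 on the log2 scale between 120 and 240 min, and for RPN4 by -0.43, which left RPN4 higher in rapamycin at either time. For RPN11 the change between these times was -0.94. For PRE7 the effect changed by -0.75 between 60 and 120 min, the interval in which PRE7 rose in DMSO. Each test used the 12 libraries of a pair of harvests.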

How the results depend on the processing

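Of 454 counts of changed members under alternative settings, 406 were within 1.5 times of the value reported. The exceptions were these. For DMSO against spores at 0 min, 2 members were called by DESeq2, by edgeR's exact test and in the fit over 45 libraries, 1 without the filter on low counts and 0 to 1 with a library left out, in place of 0. For rapamycin against DMSO at 360 min, 7 were called with library size alone, 22 in the fit over 45 libraries and 2 to 19 with a library left out, in place of 11. For rapamycin against spores at 0 min, DESeq2, the exact test and the fit over 45 libraries called 1, and leaving out a library 0 to 1, in place of 0. For DMSO at 10 against 0 min library size alone gave 17 in place of 27. For DMSO at 360 against 240 min it gave 11, the fit over 45 libraries 2 and leaving out a library 0 to 1, in place of 1. The 2-fold limit, which calls fewer by construction, gave 1, 13, 8 and 5 members for DMSO against spores at 10, 30, 240 and 360 min. It gave 0, 15, 13 and 0 for rapamycin against DMSO at 60, 120, 240 and 360 min, and 1, 14, 11, 15, 17 and 8 for rapamycin against spores from 10 to 360 min. It gave 1, 1, 7, 3 and 0 for the DMSO steps to 10, 30, 60, 120 and 360 min, and 1, 1 and 2 for the changes of the rapamycin effect to 60, 120 and 360 min. The cause of the other differences was not tested.

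With the replicate block, 7 members were called for rapamycin against DMSO at 360 min (11 without it), 2 for DMSO at 360 against 240 min (1 without it) and 1 for rapamycin against spores at 0 min (0 without it). In the first 2 of these comparisons the libraries shared only a letter by the check on pairing. The block changed no other count by over 1.5 times.

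Of 1126 values of named genes, 24 changed sign, all of them differences near 0 that had not passed. PRE8 in DMSO at 60 min against spores was 0.0065 with RLE, 0.0064 with DESeq2, 0.0001 with the exact test, 0.0285 without the filter and -0.0814 to 0.0983 with a library left out. RPN7 at 360 min against spores was 0.0232 without the filter, 0.0118 in the fit over 45 libraries and -0.1009 to 0.0136 with a library left out, and PUP3 0.0206, 0.0099 and -0.1193 to 0.0506. At 120 min with rapamycin RPN11 was 0.3921 with library size alone, and RPN10 was -0.0071 to 0.0816 with a library left out. At 360 min with rapamycin RPT3 was -0.0243 with RLE, -0.0242 with DESeq2, -0.0042 without the filter, -0.0049 with the replicate block and -0.1554 to 0.1074 with a library left out. RPN7 was 0.0443 with library size alone, and RPN9 was -0.2982 to 0.2997 with a library left out. Depth was not limiting for the members, of which the lowest value in any library was 95 reads.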
